A study of Mus musculus with 5 samples.

Results

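The colony-stimulating factors Csf1, Csf2 and Csf3, the other CSF1 receptor ligand Il34, and the receptor genes Csf1r, Csf2ra, Csf2rb and Csf3r were followed through 5 single-cell RNA libraries of mouse pancreas. They were taken by name, 8 of the 27998 genes of the table, and all 8 were detected. Each group was 1 library from untreated mice: late KIC tumour at 60 days of age, late KPC tumour at 6 months, late KPfC tumour at 60 days, early KIC at 40 days and normal pancreas at 60 days. Mice were of mixed C57BL/6 and FVB background except KPfC, which was C57BL/6. The labels name the models without their alleles. As the names are generally used, all tumour models carry a pancreas-directed Cre, and among other changes KIC mice lose Cdkn2a, KPfC mice lose a conditional Trp53 gene and KPC mice carry a mutant Trp53.

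CSF1 (macrophage colony-stimulating factor) and IL-34 both bind the receptor tyrosine kinase CSF1R, on which most tissue macrophages depend for survival. CSF2 (GM-CSF) acts through a receptor made of a ligand-binding alpha chain, Csf2ra, and a signalling beta chain, Csf2rb, on macrophages, dendritic cells and granulocytes. CSF3 (G-CSF) drives the output of neutrophils through CSF3R. In pancreatic tumours the family is known for linking tumour and stromal cells to the myeloid infiltrate.

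The data were UMI counts, in which each unique molecular identifier marks 1 captured transcript. After filtering, 10718 cells were kept, 836 of late KIC, 1034 of late KPC, 2933 of late KPfC, 3529 of early KIC and 2386 of normal pancreas. The median UMIs per cell differed along with the groups, at 9331.5, 1957.5, 7592, 1776 and 4224.5 in that order, so shares of cells with a UMI are given beside levels that do not depend on depth in the same way. Levels are CPM, the UMIs of a gene in each 1000000 UMIs of its compartment in a library, with exact Poisson 95% intervals. Shares have exact binomial (Clopper-Pearson) 95% intervals, and both intervals cover counting error only. Where a compartment had 0 UMIs, the most that the count allows is given as the CPM of 3 counts. That limit lies somewhat below the upper end of the exact interval. With 1 library in each group no difference has a replicate check, so no test between conditions was run and directions below describe these libraries. Late KIC held 344 cells with Xist and no Y-linked UMI and 272 of the opposite kind, and normal pancreas 658 and 123, so both libraries contain cells of both sexes. The other 3 libraries held almost entirely 1 kind. Between 13 and 40 barcodes of each library recurred in another one. Cells were grouped into compartments by clustering without the 8 genes and by marker transcripts, which is why names end in "-like". The epithelial or tumour-like compartment held 281, 61, 495, 356 and 9 cells of late KIC, late KPC, late KPfC, early KIC and normal pancreas. The macrophage-like compartment held 298, 525, 1748, 753 and 49 cells in the same order. In late KIC, 245 of the 281 tumour-like cells formed a mesenchymal tumour-like cluster, numbered 14. Neutrophil-like cells numbered 14 in late KIC, 25 in late KPC, 105 in late KPfC, 0 in early KIC and 2 in normal pancreas. All 11 neutrophil markers were detected in these cells of each of the 3 late tumours, as they were in tumour-like cells of late KIC and late KPfC. Their summed level was 296884, 263313 and 151347 CPM in late KIC, late KPC and late KPfC. In macrophage-like cells it was 1997, 1427 and 1291 CPM in the same order. The cluster was named from these same markers, so the levels are a description.

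Over all kept cells the table held 1484 UMIs of Csf1 in 952 cells, 629 of Il34 in 434 cells, 460 of Csf2 in 157 cells and 1721 of Csf3 in 686 cells. The receptors held 7683 UMIs for Csf1r, 5022 for Csf2ra, 7981 for Csf2rb and 476 for Csf3r. Csf2 and Csf3r are therefore the genes whose levels rest on the fewest counts.

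Csf1 was a fibroblast transcript in every library, with lower levels in mesothelial-like cells. Csf1 lies at chr3:107741048-107760469 on the minus strand (GRCm38). In fibroblast-like cells its level was 195 CPM (166 to 227) in late KIC, 205 CPM (137 to 294) in late KPC, 106 CPM (74.0 to 148) in late KPfC, 123 CPM (110 to 137) in early KIC and 133 CPM (118 to 150) in normal pancreas. Late KIC and late KPC were the high ones. The late KIC interval lay above those of late KPfC, early KIC and normal pancreas, while that of late KPC overlapped them. A Csf1 UMI was present in 75.5% (61.1 to 86.7) of 49 late KIC fibroblast-like cells, against 19.7% (17.6 to 21.9) of 1353 in early KIC, whose cells were much shallower. After every cell was thinned to 1000 UMIs the shares were 18.4% and 11.1%.

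In mesothelial-like cells, which line the pancreas surface, the Csf1 level was 51.1 CPM in late KIC, 32.0 CPM in late KPC, 62.7 CPM in late KPfC, 84.2 CPM in early KIC and 94.5 CPM in normal pancreas. All 4 tumour libraries had lower values than normal pancreas, but its interval (62.3 to 138) lay above that of late KPC alone (16.0 to 57.3) and overlapped the others. Macrophage-like cells had a far lower Csf1 level, between 7.35 CPM in late KIC and 17.0 CPM in early KIC, and 0 UMIs in the 49 normal cells, a count that allows at most 14.7 CPM. Tumour-like cells had 4.49 CPM in late KIC, 27.9 CPM in late KPC, 6.93 CPM in late KPfC and 13.6 CPM in early KIC. In late KIC these were 34 UMIs, of which 16 lay in 1 cell. The mesothelial-like level was close to the tumour-like one in late KPC. Endothelial-like cells of early KIC had 39.5 CPM, with 14 UMIs in 14 of 196 cells. T or NK-like cells held at most 2 Csf1 UMIs in any library.

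Il34, made in other tissues mainly by keratinocytes and neurons, shared the stromal location of Csf1 and added tumour cells. Il34 lies at chr8:110741829-110805924, minus strand, and 2 annotated antisense genes, Gm15894 and Gm15895, overlap it by 3979 and 287 bases. No source used here says whether the counting used strand. The fibroblast-like level of Il34 was 7.16 CPM in late KIC (6 UMIs), 21.2 CPM in late KPC (3 UMIs), 6.07 CPM in late KPfC (2 UMIs), 19.2 CPM in early KIC (51 UMIs) and 48.1 CPM in normal pancreas (102 UMIs). Normal pancreas was the highest, and its interval of 39.2 to 58.4 CPM lay above those of late KIC, late KPfC and early KIC.

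In mesothelial-like cells the Il34 level was 20.1 CPM (10.0 to 35.9) in late KIC, 8.74 CPM (1.80 to 25.5) in late KPC, 58.6 CPM (48.9 to 69.6) in late KPfC, 18.7 CPM (2.27 to 67.6) in early KIC and 38.5 CPM (19.2 to 68.9) in normal pancreas. Late KPfC, with a UMI in 72 of 160 cells, was the high one among the late tumours, without overlap. In tumour-like cells the Il34 level was 21.4 CPM (18.2 to 24.9) in late KIC, 16.8 CPM in late KPC, 15.5 CPM (12.7 to 18.8) in late KPfC and 12.4 CPM in early KIC. A UMI was present in 105 of 281 late KIC tumour-like cells (37.4%), which had a median of 20988 UMIs, and after thinning in 2.14%. The level was nearly the same in the mesenchymal cluster 14 of late KIC, at 21.3 CPM, as in the 36 late KIC cells of the epithelial cluster 3, at 22.3 CPM. Macrophage-like cells held 12 Il34 UMIs in late KPfC, 1 in early KIC and none elsewhere, and T or NK-like and dendritic-like cells held none.

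Csf2 was found in the fewest cells of the 4 factors, and in tumour-like cells of the late tumours above all. It lies at chr11:54247271-54249667, minus strand, and overlaps the antisense gene Gm12223, which had 1 UMI in all kept cells. Tumour-like cells had 25.1 CPM (21.6 to 28.9) in late KIC, 41.9 CPM (23.4 to 69.1) in late KPC, 11.6 CPM (9.15 to 14.5) in late KPfC and 0 UMIs in 356 cells in early KIC, a count that allows at most 3.39 CPM. The 3 late tumours thus had Csf2 UMIs in tumour-like cells and early KIC had none. Few cells carried them: 35 of 281 late KIC cells held 190 UMIs, 36 of these in 1 cell, and 40 of 495 late KPfC cells held 77. In late KPC, 13 of the 15 UMIs lay in 1 cell, and without it the level was 5.92 CPM. Late KIC tumour-like cells with a Csf2 UMI had a macrophage signal of 121 CPM, summed over C1qa, C1qb, C1qc, Lyz2, Cd68 and Cd14, and those without one 148 CPM. They were deeper, with a median of 39731 UMIs against 19736.

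Macrophage-like cells were the other place of Csf2, at 4.08 CPM in late KIC (10 UMIs in 2 cells), 4.60 CPM in late KPC (7 UMIs), 8.04 CPM in late KPfC (114 UMIs in 56 cells), 2.03 CPM in early KIC (3 UMIs) and 0 UMIs in normal pancreas. The late KPfC UMIs were uneven over clusters: 14.2 CPM in cluster 4 (leading genes Fcna, Marco and Arg1), 21.0 CPM in the proliferating cluster 26, 11.4 CPM in cluster 24, 2.55 CPM in cluster 6 and 0 UMIs in 424 cells of cluster 7 (leading genes Mmp12 and Itgax). In late KIC 4 fibroblast-like cells held 19 Csf2 UMIs, 12 of them in 1 cell, which gives 22.7 CPM with that cell and 8.57 CPM without it.

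T or NK-like cells are a textbook source of GM-CSF, and in these libraries they held Csf2 UMIs in normal pancreas alone: 18 UMIs in 5 of 225 cells, which was 100% of that library's Csf2. Of these, 17 UMIs fell in 4 cells of a sub-cluster of 44 cells led by Il5, Calca, Cxcr6, Gata3, Areg and Il13, genes of type 2 lymphocytes. T or NK-like cells of the 4 tumour libraries had 0 Csf2 UMIs, but they numbered 28, 99, 42 and 33 in late KIC, late KPC, late KPfC and early KIC, and the limits that 0 counts allow, between 10.9 and 44.6 CPM, lie within or above the interval of 10.7 to 28.4 CPM around the 18 CPM of normal pancreas. No difference was detectable at this depth. In late KPfC 25 of the 42 cells lay in a sub-cluster with 1 T cell marker raised, beside 5 mast cell and 10 macrophage markers.

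Csf3 was highest in mesothelial-like and macrophage-like cells in late KPfC, and in late KPC it was spread over stromal, tumour-like and macrophage-like cells. It lies at chr11:98701263-98703629 on the plus strand. The macrophage-like level of Csf3 was 21.6 CPM (16.2 to 28.3) in late KIC, 41.4 CPM (31.8 to 52.9) in late KPC, 76.3 CPM (71.8 to 81.0) in late KPfC, 17.0 CPM (11 to 25) in early KIC and 0 UMIs in normal pancreas. Late KPfC was the highest and late KPC the next, and their intervals did not overlap. A Csf3 UMI was present in 424 of 1748 late KPfC macrophage-like cells (24.3%), and in 6.86% after thinning. Of these 424 cells, 377 also had a Csf1r UMI and 336 a Csf2rb UMI. Within late KPfC the level was 129 CPM in cluster 6 (led by Ccr2), 90.2 CPM in cluster 4, 72.4 CPM in cluster 26, 60.1 CPM in cluster 24 and 18.9 CPM in cluster 7. Cluster 2, led by Chil3, Ear1 and Cxcl3, held most macrophage-like cells of late KIC and late KPC, and its Csf3 level was 36.5 CPM in late KIC, 42.5 CPM in late KPC and 18.3 CPM in late KPfC, the last from 3 UMIs.

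Mesothelial-like cells had 1.83 CPM of Csf3 in late KIC (1 UMI), 111 CPM in late KPC (38 UMIs in 8 of 50 cells), 94.4 CPM in late KPfC (208 UMIs in 40 of 160 cells), 0 UMIs in early KIC and 0 UMIs in normal pancreas. Late KPC and late KPfC overlapped, and both lay above the interval of late KIC (0.0462 to 10.2). In late KPC 14 of the 38 UMIs lay in 1 cell. Without the top cell of each library the level was 72.7 CPM in late KPC and 81.8 CPM in late KPfC. The 0 UMIs in 45 mesothelial-like cells of normal pancreas allow at most 10.5 CPM, and those in 36 shallow cells of early KIC at most 28.1 CPM. Fibroblast-like cells of late KPC had 77.6 CPM (38.8 to 139; 11 UMIs in 5 of 52 cells), an interval that overlapped those of its mesothelial-like and macrophage-like cells. Among compartments with at least 30 cells the highest late KPC value moved from mesothelial-like to fibroblast-like cells when each library was clustered on its own, after thinning and when each cell counted equally. Endothelial-like cells of late KPC had 229 CPM (125 to 384; 14 UMIs in 5 of 20 cells), while 196 early KIC cells had 0 UMIs. Of these 14 UMIs 7 lay in 1 cell, and without it the level was 123 CPM. Tumour-like cells had 0.396 CPM in late KIC, 47.5 CPM in late KPC (17 UMIs in 3 cells), 10.8 CPM in late KPfC and 9.04 CPM in early KIC (8 UMIs in 2 cells). Fibroblast-like UMIs of Csf3 also sat in few cells, such as 20 UMIs in 2 of 397 cells of normal pancreas.

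Where a factor's transcripts were found depends both on the level in a compartment and on how many cells of it were captured, so the UMIs were also counted by compartment. Fibroblast-like cells held 66.5% of the Csf1 UMIs of late KIC, 41.4% of those of late KPC, 7.69% of those of late KPfC, 82.5% of those of early KIC and 88.7% of those of normal pancreas. In late KPfC, where fibroblast-like cells were 0.784% of the library and macrophage-like cells 59.6%, macrophage-like cells held 45.1% of the Csf1 UMIs and mesothelial-like cells 30.3%. The source of most Csf1 UMIs thus differed between the libraries while the highest level among the 6 compartments stayed with fibroblast-like cells. Il34 came mainly from tumour-like cells in late KIC (90.0%), from mesothelial-like (51.6%) and tumour-like cells (41.2%) in late KPfC, and from fibroblast-like cells in early KIC (70.8%) and normal pancreas (88.7%). Late KPC had 12 Il34 UMIs in all.

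For Csf2 the tumour-like share was 85.2% in late KIC and 68.2% in late KPC, with 31.8% from macrophage-like cells in late KPC. In late KPfC macrophage-like cells held 59.4% and tumour-like cells 40.1%, although the tumour-like level was the higher one there. Early KIC had 5 Csf2 UMIs in all. Macrophage-like cells held 71.6% of the Csf3 UMIs of late KIC, 42.0% of those of late KPC, 76.6% of those of late KPfC and 39.1% of those of early KIC. Mesothelial-like cells added 25.3% in late KPC and 14.7% in late KPfC, and fibroblast-like cells held 46.9% in early KIC and 95.2% of the 21 UMIs of normal pancreas. These are shares of captured cells, and the share of a cell type in a suspension need not be that of the tissue.

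**Figure D1:**
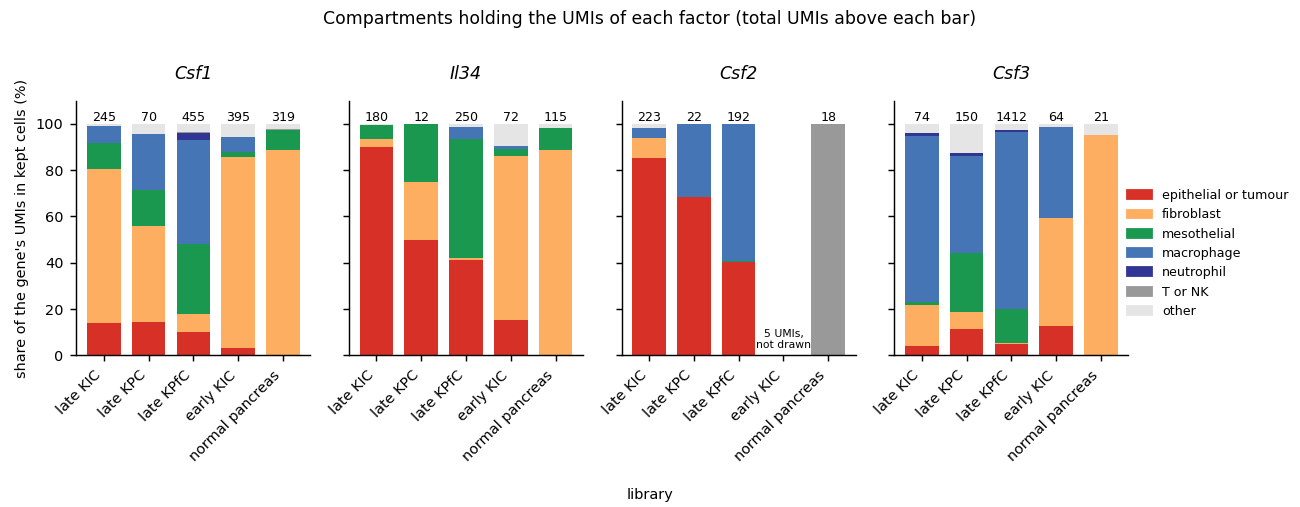
Share of each factor's UMIs in kept cells (y axis, percent) by compartment (colours) in each library (x axis), with the number of UMIs above each bar; early KIC Csf2, with 5 UMIs, is not drawn. Fibroblast-like cells hold the largest share of Csf1 except in late KPfC, and tumour-like cells hold 85.2% of Csf2 and 90.0% of Il34 in late KIC.

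Among the receptors, Csf1r was a macrophage transcript in every library. Its macrophage-like level was 254 CPM (234 to 274) in late KIC, 167 CPM (147 to 189) in late KPC, 368 CPM (358 to 378) in late KPfC, 517 CPM (481 to 556) in early KIC and 530 CPM (435 to 640) in normal pancreas. Early KIC and normal pancreas were the highest and overlapped, late KPfC came next, and late KIC and late KPC were the lowest, in that order without overlap. Shares after thinning followed the same order, at 21.1% in late KIC, 17.2% in late KPC, 29.9% in late KPfC, 38.8% in early KIC and 44.9% in normal pancreas.

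Different macrophage clusters filled the libraries, and Csf1r spanned 128 to 912 CPM across them, while ratios between libraries within a cluster lay between 0.759 and 1.41. Cluster 17, led by Ccl8, Cd209f, Cbr2, Cd163, Folr2 and Lyve1, genes of resident macrophages, had 912 CPM in 207 early KIC cells and 828 CPM in 24 cells of normal pancreas. Cluster 5, led by Lyz1, Fcrls and Retnla, had 400 CPM in early KIC and 315 CPM in normal pancreas. The Chil3 cluster 2 had 181 CPM in late KIC, 169 CPM in late KPC and 128 CPM in late KPfC. Late KPfC macrophage-like cells lay mostly in clusters 4, 6 and 7, at 379, 347 and 459 CPM. Cluster 7 of late KIC, with 102 cells, had 349 CPM. Late KIC macrophage-like cells were 164 of cluster 2 and 102 of cluster 7, and late KPC ones were 512 of cluster 2.

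Outside macrophages, dendritic-like cells had between 35.6 CPM of Csf1r in late KPC and 87.4 CPM in late KPfC, and late KPfC neutrophil-like cells 79.1 CPM. Fibroblast-like cells had 50.1 CPM in late KIC (42 UMIs in 16 of 49 cells), 7.06 CPM in late KPC, 48.6 CPM in late KPfC, 18.5 CPM in early KIC and 0.471 CPM in normal pancreas. In B or plasma-like cells, which should lack the receptor, the late KIC level was 3.76 CPM, with a UMI in 1 of 32 cells at a median of 7273.5 UMIs, against 16 of 49 fibroblast-like cells at a median of 15003. In late KIC the 16 fibroblast-like cells with a Csf1r UMI had 96.5 CPM of the 6 macrophage markers named above and the 33 without one 122 CPM. In early KIC the same contrast was 5440 against 508 CPM, and in late KPfC 1255 against 683 CPM. The macrophage markers therefore moved with Csf1r in fibroblast-like cells of early KIC and late KPfC and did not in late KIC. Their part in the early KIC and late KPfC levels was not tested. Acinar-like cells of early KIC, which should also lack the receptor, had 12 CPM (6.37 to 20.4), and red cell-like cells of late KPfC 22.7 CPM (11.8 to 39.7). The fibroblast-like value was higher than that of these cells in all 3 libraries. The intervals overlapped in early KIC (13.7 to 24.5) and late KPfC (27.8 to 78.9) and not in late KIC. The cells set beside it were of another type in each library. In early KIC the choice mattered. Endothelial-like cells there had 56.4 CPM (20 UMIs in 12 of 196 cells), above the fibroblast-like 18.5 CPM, and endocrine-like cells had 7.57 CPM. Of the 37 late KIC fibroblast-like cells with a Csf1 UMI, 15 also had a Csf1r UMI.

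Mesothelial-like cells had 65.7 CPM of Csf1r in late KIC (36 UMIs in 13 of 36 cells), 5.83 CPM in late KPC, 35.9 CPM in late KPfC, 28.1 CPM in early KIC and 35.0 CPM in normal pancreas. The late KIC cells with a UMI had 118 CPM of the macrophage markers and those without one 146 CPM, whereas in late KPfC the same contrast was 1155 against 833 CPM and in normal pancreas 250 against 36.1 CPM. Tumour-like cells had 1.45 CPM in late KIC, 16.8 CPM in late KPC, 15.8 CPM in late KPfC and 28.2 CPM in early KIC. The late KPfC value lay below that of its red cell-like cells, and the early KIC interval (18.3 to 41.7) overlapped that of its acinar-like cells. Endothelial-like cells of early KIC had 56.4 CPM, above its tumour-like value. Tumour-like cells with a Csf1r UMI had 1241 CPM of the macrophage markers in late KPfC and 1793 CPM in early KIC, against 816 and 636 CPM in those without one. The part of macrophage transcripts in the tumour-like Csf1r levels was not tested.

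Csf2ra, the alpha chain of the GM-CSF receptor, was even across macrophage-like cells of all 5 libraries. It lies at chr19:61223957-61228429 on the minus strand. Its macrophage-like level was 232 CPM (213 to 251) in late KIC, 173 CPM (153 to 196) in late KPC, 215 CPM (208 to 223) in late KPfC, 195 CPM (173 to 219) in early KIC and 182 CPM (128 to 250) in normal pancreas. The highest and lowest differed by less than 1.5-fold, and the interval of normal pancreas took in all the others' values. The resident-type cluster 17 was the exception, with 67.5 CPM in early KIC and 66.2 CPM in normal pancreas, beside 234 and 266 CPM in cluster 5 of the same libraries. Dendritic-like cells had 256 CPM in late KIC, 196 CPM in late KPC, 139 CPM in late KPfC, 181 CPM in early KIC and 213 CPM in normal pancreas, and late KPfC neutrophil-like cells 229 CPM. Fibroblast-like and tumour-like cells stayed at or below 23.7 CPM where at least 30 cells were present.

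Csf2rb, the beta chain that signals for GM-CSF, IL-3 and IL-5, was low in macrophage-like cells of normal pancreas and high in all tumour libraries. It lies at chr15:78325752-78353847 on the plus strand, 20030 bases from its near-identical copy Csf2rb2, which in mouse encodes a beta chain used for IL-3. Counting could split reads between the pair, so both are uncertain to that extent. The macrophage-like level of Csf2rb was 386 CPM (362 to 412) in late KIC, 374 CPM (344 to 406) in late KPC, 316 CPM (307 to 326) in late KPfC, 246 CPM (221 to 272) in early KIC and 58.9 CPM (30.4 to 103) in normal pancreas. Every tumour library lay above the interval of normal pancreas, which had 12 UMIs in 8 of 49 cells. Thinned shares were 27.5% in late KIC, 31.7% in late KPC, 25.6% in late KPfC, 18.6% in early KIC and 4.08% in normal pancreas.

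Among macrophage-like clusters, Csf2rb was highest in cluster 7, at 542 CPM in late KIC and 477 CPM in late KPfC, and lowest in the resident-type cluster 17, at 52.8 CPM in early KIC and 11 CPM in normal pancreas. In cluster 5 it was 306 CPM in early KIC and 108 CPM in normal pancreas. Cluster 2 had 269 CPM in late KIC, 367 CPM in late KPC and 158 CPM in late KPfC. Dendritic-like cells had 659 CPM in late KIC, 854 CPM in late KPC, 533 CPM in late KPfC, 604 CPM in early KIC and 137 CPM in normal pancreas, so normal pancreas was again the low one, without overlap. Neutrophil-like cells of late KPfC had 305 CPM (257 to 361). In late KIC fibroblast-like cells 69 Csf2rb UMIs gave 82.4 CPM, but 68.1% of them lay in 3 cells, and none of the 49 cells had both receptor chains.

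Both chains are needed for a GM-CSF receptor, and their joint detection was counted in macrophage-like cells. A UMI of each was present in 61.4% of cells in late KIC, 22.1% in late KPC, 61.2% in late KPfC, 12.6% in early KIC and 12.2% in normal pancreas. After thinning the shares were 6.38%, 6.43%, 4.92%, 3.98% and 0% in the same order, so the wide gap between the deep and the shallow libraries narrowed at equal depth. A UMI of Csf1r or Csf2rb was present in between 65.1% of macrophage-like cells (late KPC) and 96.3% (late KPfC).

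Csf3r, the G-CSF receptor and a neutrophil gene, lies at chr4:126024550-126044440 on the plus strand. Neutrophil-like cells had 120 CPM (57.6 to 221; 10 UMIs) in late KIC, 68.4 CPM (14.1 to 200; 3 UMIs) in late KPC and 72.5 CPM (49.9 to 102; 33 UMIs in 24 of 105 cells) in late KPfC. The 3 intervals overlapped. Macrophage-like cells had 6.94 CPM in late KIC, 7.22 CPM in late KPC, 20.3 CPM (18 to 22.8) in late KPfC, 8.82 CPM in early KIC and 9.82 CPM in normal pancreas. Late KPfC was the high one, and its 1748 macrophage-like cells held 73.1% of that library's Csf3r UMIs, against 8.38% in neutrophil-like cells. The summed level of the 11 neutrophil markers in macrophage-like cells was 1997 CPM in late KIC, 1427 CPM in late KPC, 1291 CPM in late KPfC, 358 CPM in early KIC and 167 CPM in normal pancreas. Of these markers S100a8 was at 345, 355, 454, 108 and 9.82 CPM and S100a9 at 72.3, 55.1, 297, 65.8 and 0 CPM in the same order, so both were highest in late KPfC, as Csf3r was, and the sum was highest in late KIC. Their part in the Csf3r levels was not tested. An unnamed late KPfC cluster of 111 cells led by G0s2, mitochondrial genes, Hdc and Il23a had 69.5 CPM of Csf3r, from 30 UMIs. G0s2 and Hdc are among the 11 neutrophil markers. The UMIs of this cluster are in neither of the late KPfC shares given above.

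**Figure D2:**
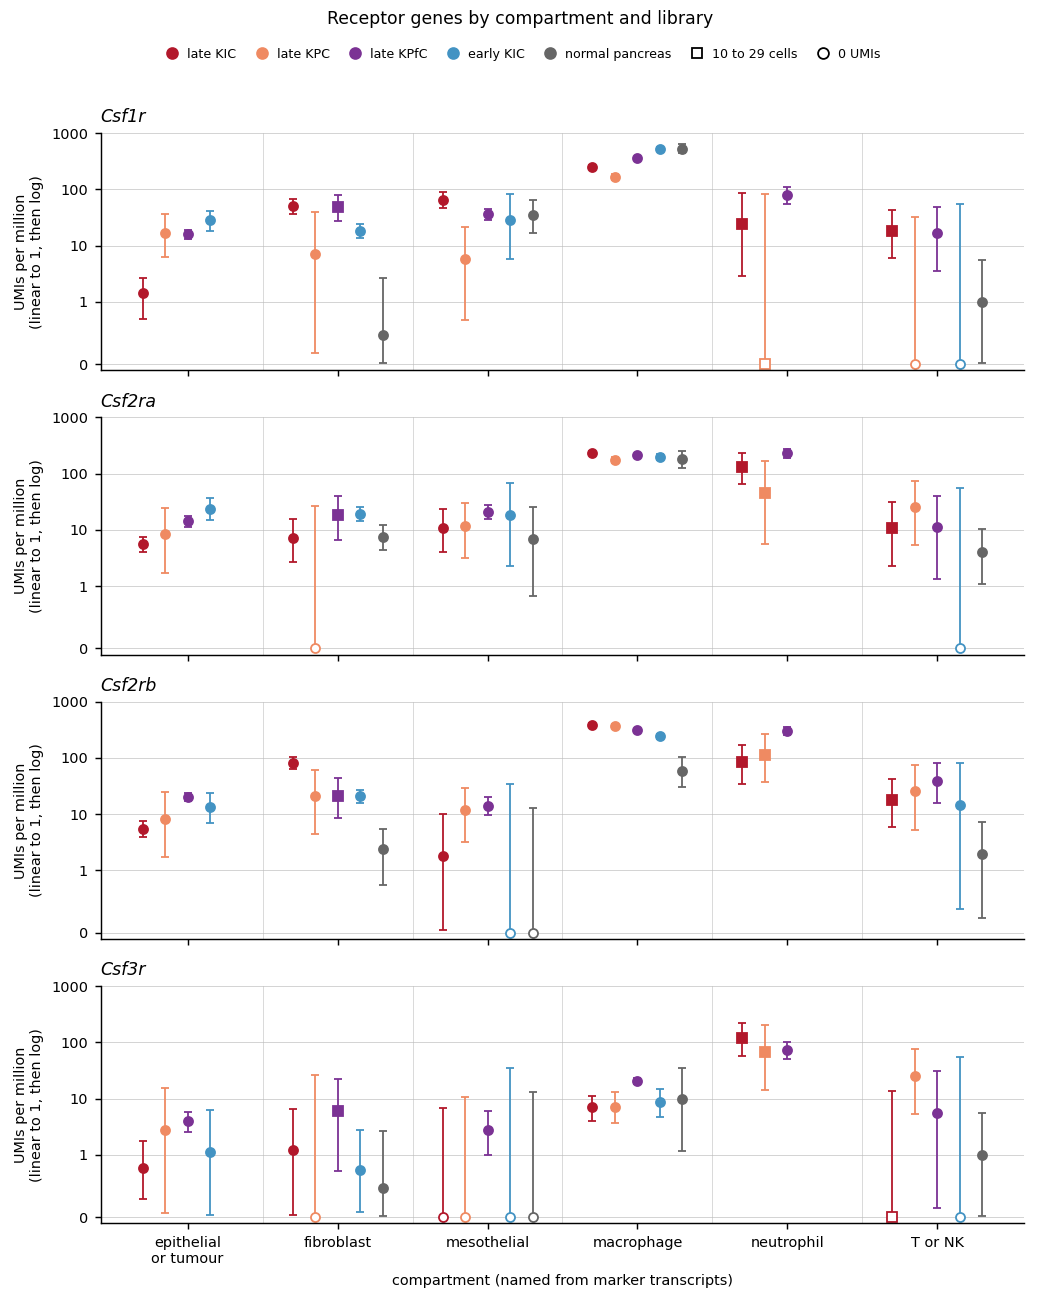
Level of Csf1r, Csf2ra, Csf2rb and Csf3r in CPM (y axis, linear to 1 and then log) by compartment (x axis), 1 point for each library with its exact 95% Poisson interval; squares mark 10 to 29 cells and open points 0 UMIs. In macrophage-like cells Csf1r ranges from 167 to 530 CPM with normal pancreas highest, Csf2ra is even, and Csf2rb is lowest in normal pancreas (58.9 CPM).

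**Figure D3:**
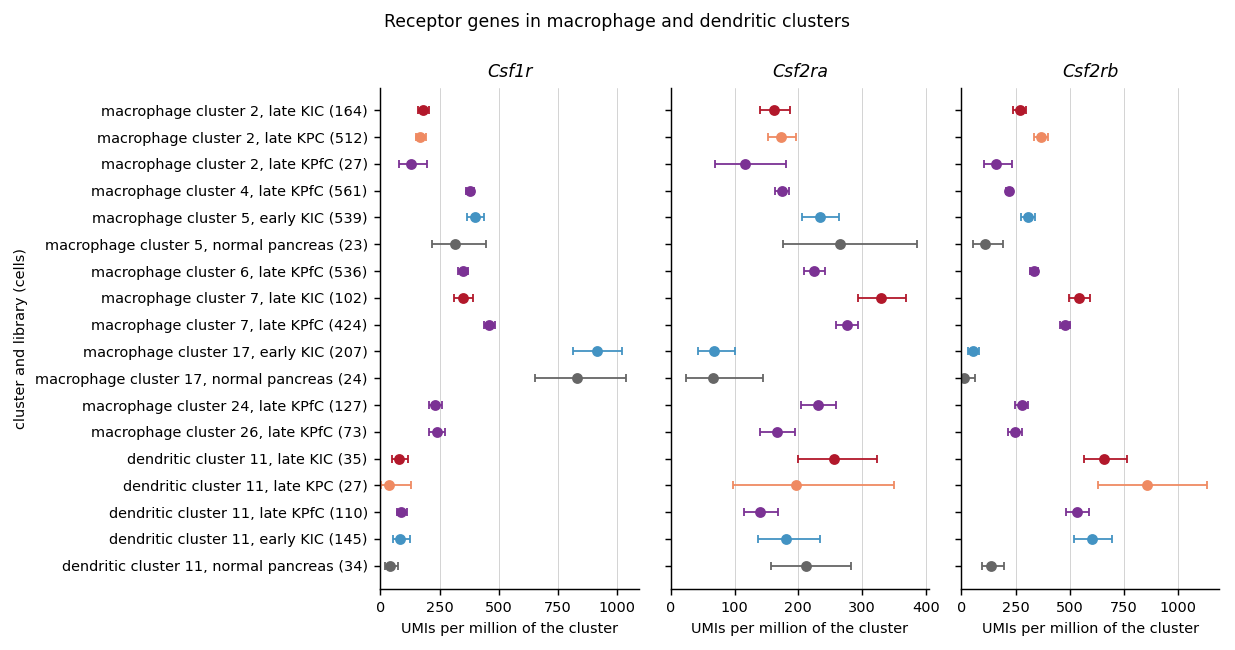
Level of Csf1r, Csf2ra and Csf2rb in CPM (x axes, linear) in each macrophage-like and dendritic-like cluster with at least 20 cells in a library (y axis, cells in brackets), with exact 95% Poisson intervals. Cluster 17 stands out with the highest Csf1r (912 and 828 CPM) and low Csf2rb, and dendritic-like cells of normal pancreas (137 CPM) lie below those of the 4 tumour libraries for Csf2rb.

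The promoters were read for GAGGAA, a form of the site bound by the myeloid factor PU.1, because the receptors share a myeloid pattern. Sequences are the 250 bases before the start in RefSeq on GRCm38.p6, 5′ to 3′ on the gene's strand, with GAGGAA on either strand in capitals. An entry was matched for Csf1, Csf2, Csf2ra and Csf3r of the 8 genes and for Csf2rb2. The 3 windows with a match lie at chr19:61228419-61228668 (minus) for Csf2ra, chr4:126024409-126024658 (plus) for Csf3r and chr15:78305722-78305971 (minus) for Csf2rb2.
Csf2ra: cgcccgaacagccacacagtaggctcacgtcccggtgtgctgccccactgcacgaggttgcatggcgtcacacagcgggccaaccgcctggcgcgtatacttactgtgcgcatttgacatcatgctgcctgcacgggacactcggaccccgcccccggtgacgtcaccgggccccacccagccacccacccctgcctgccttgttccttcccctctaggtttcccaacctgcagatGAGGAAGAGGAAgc
Csf3r: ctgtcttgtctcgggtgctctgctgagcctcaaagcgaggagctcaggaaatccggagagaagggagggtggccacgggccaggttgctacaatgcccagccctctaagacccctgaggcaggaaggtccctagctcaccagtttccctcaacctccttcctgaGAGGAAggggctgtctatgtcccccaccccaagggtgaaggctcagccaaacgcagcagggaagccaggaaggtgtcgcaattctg
Csf2rb2: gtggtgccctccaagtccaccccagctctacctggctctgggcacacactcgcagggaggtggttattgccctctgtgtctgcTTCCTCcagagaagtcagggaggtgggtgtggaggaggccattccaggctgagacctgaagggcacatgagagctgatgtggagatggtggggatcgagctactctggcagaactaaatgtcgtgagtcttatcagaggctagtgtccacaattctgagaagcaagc
GAGGAA was found 2 times in the Csf2ra window, side by side at bases 14 to 9 and 8 to 3 before the start, 1 time in Csf3r at bases 86 to 81, and 1 time on the other strand in Csf2rb2 at bases 167 to 162. The windows of Csf1 and Csf2 held no match. RefSeq starts differ from the gene positions given above for some genes. The Csf3r match and the Csf2ra match at bases 8 to 3 lie inside those positions. The Csf2 window, chr11:54249900-54250149, stops short of the gene, so the bases just before the gene were not read. GAGGAA occurs in 23.2% of 32851 RefSeq promoters of the same length, so a match is common. TGANTCA, a form of the AP-1 site found in 6.75% of promoters, and TATAAA, found in 12.4%, had no match in the 5 windows. An NF-kB motif, found in 1.41% of promoters, had 1 match on the other strand of the Csf1 window, at bases 154 to 145 before the start, and none in the other 4 windows. A match is a description of letters and not of binding.

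The comparison of early KIC with normal pancreas asks what differs at an early stage. Of 12 pairs of gene and compartment with at least 20 UMIs, in compartments with at least 30 cells in both libraries, 4 were at least 2-fold higher and 1 at least 2-fold lower, 41.7% in all, against 21.4% of all gene and compartment pairs counted the same way (15.2% higher and 6.21% lower). The higher pairs were Csf2rb in macrophage-like cells and Csf1r, Csf2ra and Csf2rb in fibroblast-like cells, and the lower one was Il34 in fibroblast-like cells. Csf2rb in macrophage-like cells was 246 CPM in early KIC and 58.9 CPM in normal pancreas, a ratio of 4.17 (2.36 to 8.14). Within cluster 5 the Csf2rb ratio was 2.82 (1.56 to 5.71). Csf2rb2 moved with it, at 6.49 (1.75 to 54.4), from 2 UMIs in normal pancreas. In dendritic-like cells the Csf2rb ratio was 4.40 (2.99 to 6.65), while that of Csf2ra was 0.850 (0.568 to 1.28). The beta chain was thus higher in early KIC in both kinds of myeloid cell, without the alpha chain, and after thinning a Csf2rb UMI remained in 42.8% of dendritic-like cells of early KIC and 11.8% of those of normal pancreas.

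When each library was clustered on its own, the macrophage-like log2 ratio of Csf2rb was 1.18 in place of 2.06 and that of Csf1r 1.03 in place of -0.04, with other cells called macrophage-like. Csf1r (0.976, 0.797 to 1.21) and Csf2ra (1.08, 0.762 to 1.56) in macrophage-like cells, and Csf1 in fibroblast-like cells (0.922, 0.784 to 1.09), had ratios whose intervals took in 1. Il34 in fibroblast-like cells was 0.400 of the normal level (0.280 to 0.566). The libraries drew on different fibroblast clusters, and within cluster 8, led by Pi16 and filled by both, the Il34 ratio was 0.611 (0.352 to 1.01), no longer past 2-fold. The 3 receptors in fibroblast-like cells had at most 20.8 CPM in early KIC. On the log2 scale Csf1r stood at 5.29 there, with a UMI in 1 of 397 cells of normal pancreas. Thinning left no Csf1r UMI in those cells, and with the floor of 3 counts the log2 bound was 0.97. Csf2ra stood at 1.35 and at 0.87 after thinning. The 19 macrophage and monocyte markers summed to 4840 CPM in fibroblast-like cells of early KIC (19 of 19 detected) and 2386 CPM in those of normal pancreas (13 of 19), with C1qa at 65.7 and 0.471 CPM and Lyz2 at 391 and 3.77 CPM. The part of macrophage transcripts in these receptor ratios was not tested.

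Late KIC against early KIC compares stages of 1 model. Of 20 pairs 5 were at least 2-fold higher and 8 at least 2-fold lower, 65.0% in all, against 30.4% of all pairs (11.1% higher and 19.3% lower). Csf2 in tumour-like cells was 25.1 CPM in late KIC and 0 UMIs in early KIC, at least 7.40-fold higher with the floor of 3 counts for the library (interval from 5.96). The tumour-like cells came from different clusters, mostly cluster 14 in late KIC and cluster 10 in early KIC. Csf1r in macrophage-like cells was lower, 197 CPM in late KIC and 517 CPM in early KIC, a ratio of 0.381 (0.332 to 0.435). Cluster 7 was set aside in these macrophage ratios. Its 10 leading genes held 1 dendritic marker, Itgax, and no macrophage marker, although all 12 macrophage markers were raised in it. These libraries shared no macrophage cluster with 20 cells in each. Csf2ra (0.885, 0.746 to 1.05) and Csf2rb (1.2, 1.04 to 1.38) differed by less than 2-fold, so in the same cells Csf1r was lower and Csf2rb was not. Csf1 in macrophage-like cells was 0.192 of the early level (0.0575 to 0.511), from 5 UMIs in late KIC. With cluster 7 kept, which holds 102 of the 298 late KIC cells, 13 of the 18 Csf1 UMIs come from it and the Csf1 ratio is 0.433 (0.223 to 0.827). The ratios of Csf1r (0.490, 0.440 to 0.545), Csf2ra (1.19, 1.03 to 1.37) and Csf2rb (1.57, 1.39 to 1.78) are then on the same side of 2-fold as before.

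In fibroblast-like cells Csf1 was 1.58 times the early KIC level (1.30 to 1.91), and within the shared cluster 15, led by Col1a1, Sfrp2 and Tagln, it was 197 CPM in late KIC and 92.7 CPM in early KIC, a ratio of 2.12 (1.45 to 3.20). Csf1r (2.71, 1.75 to 4.18) and Csf2rb (3.97, 2.74 to 5.76) were higher there, and Il34 (0.372, 0.130 to 0.867) and Csf2ra (0.372, 0.130 to 0.867) lower, both from 6 UMIs against 51. Il34 turned round when cells were thinned, to a log2 ratio of 0.98. In another thinning draw none of the 49 late KIC cells kept an Il34 UMI, so that sign rests on very few UMIs. Fibroblast-like cells of late KIC with a Csf2rb UMI had 152 CPM of the 6 macrophage markers and those without one 100 CPM. Csf2 was higher by a ratio of 30.04 (7.25 to 266), from 19 UMIs in 4 cells. Csf1r in mesothelial-like cells was higher as well (2.34, 0.740 to 11.9), from 36 UMIs against 3. With each library clustered on its own, Csf2rb in tumour-like cells had a log2 ratio of -0.36 and Csf1 of -0.90, both short of 2-fold. In tumour-like cells Csf1 (0.331, 0.167 to 0.702), Csf1r (0.0514), Csf2ra (0.234) and Csf2rb (0.409) were lower, while the defining macrophage markers were lower too, C1qa at 21.5 CPM in late KIC and 63.2 CPM in early KIC and Lyz2 at 44.1 and 297 CPM. All 19 macrophage and monocyte markers summed to 1435 CPM in late KIC (19 detected) and 6713 CPM in early KIC (17 detected), but that sum is not specific: normal pancreas, with 9 such cells, had 6607 CPM, with 3 of 19 detected and C1qa and Cd68 at 0. The median log2 ratio of all genes was -0.33 in tumour-like cells and -0.21 in fibroblast-like cells, against which these ratios are to be read.

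Late KIC against late KPfC compares models at the same age, on different backgrounds. Of 21 pairs 1 was at least 2-fold higher, Csf2 in tumour-like cells, and 11 were at least 2-fold lower, 57.1% in all, against 21.4% of all pairs (7.51% higher and 13.9% lower). Csf2 in tumour-like cells was 25.1 CPM in late KIC and 11.6 CPM in late KPfC, a ratio of 2.16 (1.65 to 2.86). Most late KIC cells were of cluster 14 and most late KPfC cells of cluster 3, and within cluster 3, with 36 and 485 cells, the ratio was 1.73 (0.762 to 3.46), and over all tumour-like cells its log2 value was 0.55 when each cell counted equally, 0.88 when each library was clustered on its own and 0.95 under a stricter cell filter, against 1.11, each short of 2-fold. Csf3 was lower, with 1.83 CPM in late KIC and 94.4 CPM in late KPfC in mesothelial-like cells (0.0193, 0.000487 to 0.109), 29.99 and 95.8 CPM in macrophage-like cells without cluster 7 (0.313, 0.228 to 0.421), and 0.396 and 10.8 CPM in tumour-like cells (0.0365, 0.00736 to 0.111). Thinning left 0 Csf3 UMIs in late KIC mesothelial-like cells, and with the floor of 3 counts the log2 bound there was -0.72, short of 2-fold. Within single macrophage clusters the Csf3 ratio was 0.404 (0.157 to 0.878) in cluster 7 and 1.99 (0.638 to 10.04) in cluster 2. In cluster 2 there were 43 Csf3 UMIs in late KIC and 3 in late KPfC. Csf3r (0.174, 0.0632 to 0.385) and Csf1 (0.264, 0.0842 to 0.631) in macrophage-like cells and Il34 in mesothelial-like cells (0.343, 0.167 to 0.634) were lower too. These macrophage ratios leave out cluster 7, with 102 of 298 cells in late KIC and 424 of 1748 in late KPfC. With it kept, Csf1 is at 7.35 CPM in late KIC and 14.5 CPM in late KPfC, a ratio of 0.508 (0.295 to 0.824) that is short of 2-fold, and Csf3r has a ratio of 0.342 (0.196 to 0.557). Within cluster 7 the Csf1 ratio was 0.689 (0.351 to 1.25). The log2 ratio of Csf1 was -0.65 with each library clustered on its own. After thinning it was -0.05, and that of Csf3r -0.87. The late KIC counts behind both thinned values were no more than the floor of 3 counts. These values therefore cannot show how far the differences shrank at equal depth. Csf1r in macrophage-like cells was 0.584 of the late KPfC level (0.517 to 0.657), and within cluster 2, with 27 late KPfC cells, the ratio was 1.41 (0.899 to 2.33). Csf2ra (0.889) and Csf2rb (1.12) were close to 1. The other 5 lower pairs were the receptors Csf1r, Csf2ra, Csf2rb and Csf3r in tumour-like cells and Csf2rb in mesothelial-like cells, at 3.92 to 20.2 CPM in late KPfC. The 19 macrophage and monocyte markers summed to 1435 CPM in tumour-like cells of late KIC and 2661 CPM in those of late KPfC (19 of 19 detected in each), and to 2107 and 3317 CPM in mesothelial-like cells. C1qa was at 21.5 and 69.3 CPM in these tumour-like cells and at 5.48 and 77.2 CPM in the mesothelial-like ones, and the part of macrophage transcripts in these 5 ratios was not tested.

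Late KPC against late KPfC sets a model with mutant Trp53 beside one that loses it, going by their names, at different ages and backgrounds. Of 21 pairs 3 were at least 2-fold higher and 7 at least 2-fold lower, 47.6% in all, against 24.5% of all pairs (10.4% higher and 14.1% lower). The higher ones were Csf1 (4.03, 1.81 to 8.10), Csf2 (3.61, 1.93 to 6.33) and Csf3 (4.38, 2.42 to 7.51) in tumour-like cells, from 10, 15 and 17 UMIs in 61 late KPC cells. The Csf2 and Csf3 UMIs lay in 3 cells each, and without the 5% of cells with the most UMIs the Csf2 log2 ratio was -1.35. Csf3 in mesothelial-like cells had a ratio of 1.17 (0.807 to 1.66), whereas Il34 there was lower, 8.74 CPM in late KPC and 58.6 CPM in late KPfC (0.149, 0.0304 to 0.446), and so was Csf1r (0.162, 0.0193 to 0.607). Csf2rb in tumour-like cells was lower (0.415), from 3 UMIs. In macrophage-like cells Csf3 (0.439, 0.334 to 0.567), Csf1r (0.498, 0.436 to 0.567), Csf3r (0.302, 0.143 to 0.564) and Csf2 (0.441, 0.173 to 0.938) were lower. These ratios again leave out cluster 7, 10 cells in late KPC and 424 in late KPfC. With it kept Csf3 (0.542, 0.414 to 0.699) and Csf2 (0.572, 0.225 to 1.22) are short of 2-fold and Csf1r is at 0.455 (0.400 to 0.516). The log2 ratio of Csf3 was also short of it after thinning, at -0.89, that of Csf2 without the 5% of cells with the most UMIs, at -0.75, and that of Csf3r when each cell counted equally, at -0.89. The Csf1r ratio lay at the 2-fold line, with a log2 value of -0.82 when each cell counted equally. Csf2ra had a ratio of 0.896 (0.784 to 1.02) and Csf2rb was 1.39 times as high (1.27 to 1.53), with Csf2rb2 at 1.52 (1.26 to 1.81). As late KPC macrophage-like cells were nearly all of cluster 2, the macrophage ratios set that cluster against others: within it the Csf1r ratio was 1.32 (0.843 to 2.17), that of Csf3 2.32 (0.759 to 11.6) and that of Csf2rb 2.32 (1.56 to 3.58), with 27 late KPfC cells.

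**Figure D4:**
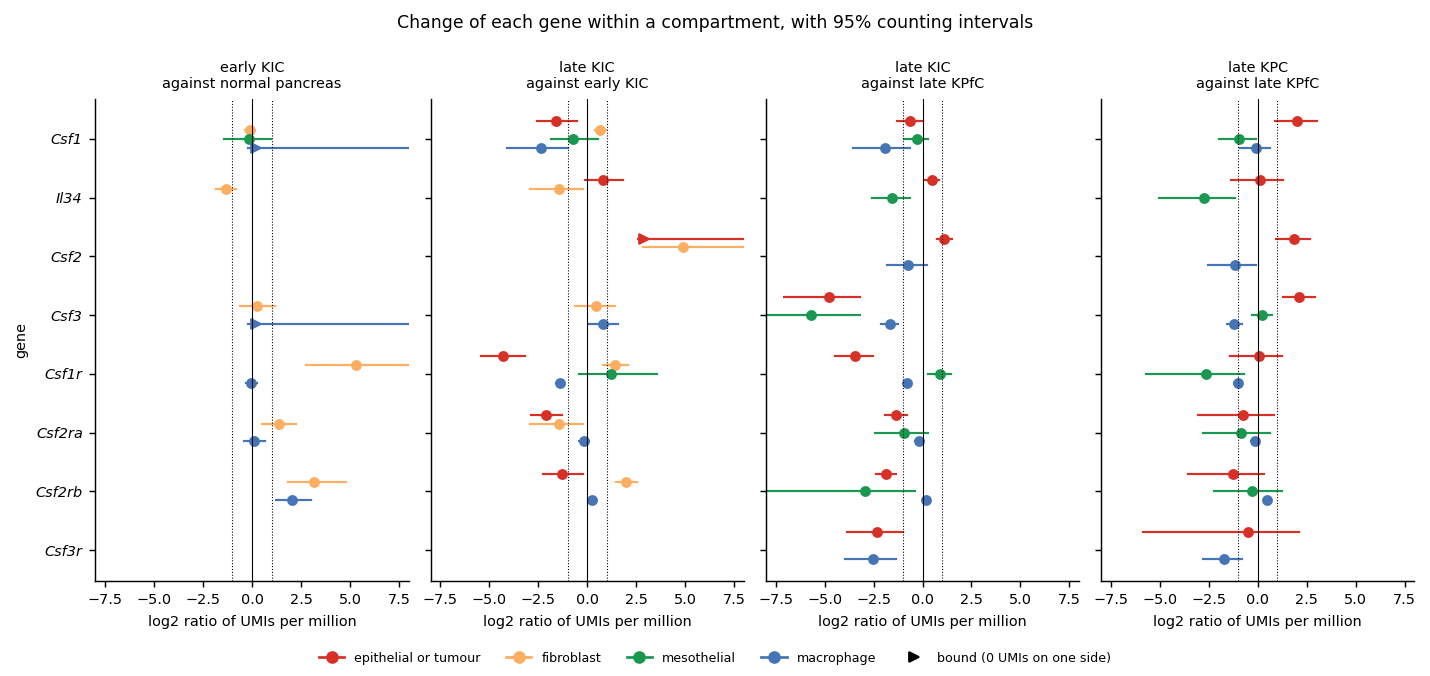
Log2 ratio of CPM (x axes) for each gene (y axis) in each compartment (colours) of the 4 comparisons, 74 ratios with at least 20 UMIs, with exact 95% intervals; dotted lines mark 2-fold and arrowheads a bound. Csf2rb is higher in early KIC than in normal pancreas in macrophage-like cells, Csf1r is lower in late KIC than in early KIC there, and Csf3 is lower in late KIC than in late KPfC in 3 compartments.

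The pathway around these genes was read from 5 lists in macrophage-like cells, with cluster 7 left out as in the ratios. Among 13 genes linked to GM-CSF in myeloid cells, 7 had enough UMIs in early KIC against normal pancreas, and 6 were at least 2-fold higher (Ccl17, Cd9, Fabp4, Itgax, Arg1 and Ear2) with none lower, where 17.0% of all macrophage genes were higher and 6.12% lower. Their median log2 ratio was 2.06, beside 0.14 for all genes. In late KIC against early KIC 8 of 13 were higher, among them Pparg, the lipid regulator of alveolar-type macrophages, Cish, a feedback inhibitor of STAT5, Arg1 and Chil3, and Ccl22 was lower; 10.1% of all genes were higher and 9.73% lower, and the list's median was 1.66 beside 0.07. Against late KPfC 4 of 13 were higher and 2 lower in late KIC (7.32% and 11.4% of all genes), and 3 higher and 1 lower in late KPC (11.4% and 13.3%). Within cluster 7 the late KIC against late KPfC counts went the other way, with 1 of 12 higher and 6 lower (5.4% and 11.1% of all genes). The list's median log2 ratio was -1.01 there, beside -0.12 for all genes, and 0.33 in the cells without cluster 7. These lists and clusters were chosen with earlier results in view, and several of the listed genes lead the clusters that fill a library, so the counts are a description.

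The shares of all macrophage genes just given are also the background of the other 4 lists. Of the genes that carry the CSF1 receptor signal, Fyn was at least 2-fold higher and Gab2 and Inpp5d at least 2-fold lower in early KIC than in normal pancreas (16 counted), and 0 of 18 were past 2-fold in late KIC against early KIC, where Csf1r itself was lower. Src was higher and Plcg2 lower in late KIC than in late KPfC (19 counted), and Sos1 and Fyn were higher and Pik3cg lower in late KPC than in late KPfC (19 counted). Kinases of the SRC family (Src and Fyn) and the adaptor Gab2 act close to the receptor, and Inpp5d encodes a phosphatase that limits its signal. Of the JAK-STAT genes Socs2 and Cish were higher in late KIC than in early KIC (2 of 14), Jak2 was higher in early KIC than in normal pancreas (10 counted), Socs1 and Cish were lower in late KIC than in late KPfC (15 counted), and Pim1 was lower in late KPC than in late KPfC (15 counted). Of the myeloid transcription factors those lower in early KIC than in normal pancreas included Klf4, Egr1 and Maf (13 counted), and Egr1, Maf and Batf3 were lower in late KIC than in early KIC (14 counted). Against late KPfC 5 of 14 were lower and 1, Irf8, was higher in each of late KIC and late KPC. Of 11 CSF-related genes that are no members, Csf2rb2, Sdc1 and Kitl were higher in early KIC than in normal pancreas (4 counted), Il3ra and Kitl lower in late KIC than in early KIC (4 counted), Il3ra and Kitl lower in late KIC than in late KPfC (5 counted), and Kit higher and Flt3l lower in late KPC than in late KPfC (6 counted).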

How the data were processed

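Droplet 3′ single-cell RNA libraries of 5 groups, 1 library each, were used. The deposited values are raw UMI counts per gene and barcode, produced upstream on GRCm38 (Cell Ranger 2.1.1, per the submitters' processing notes). A barcode was kept from 200 detected genes and 500 UMIs upwards, if mitochondrial genes took no more than 20% of its UMIs. No doublet caller was run, and doublets are taken as still present. Cells were scaled to 10000 UMIs, and 2000 variable genes without the 8 genes studied, 30 principal components and 15 neighbours gave 32 Leiden clusters at resolution 1 (scanpy 1.11.5, leidenalg 0.10.2, Python 3.11.15, seed 0). A cluster was named from 162 markers where at least 3 were raised, and 2 clusters with 151 cells stayed unnamed. UMIs were summed by library and compartment and divided by their total to give CPM, computed here from the deposited counts. Ratios are of CPM with exact conditional binomial 95% intervals, computed in compartments with at least 30 cells in both libraries. A pair was counted from 20 UMIs over both libraries and called past 2-fold, and 0 counts were set to a floor of 3 counts for the library. Thinning drew 1000 UMIs per cell without shallower cells. All 8 genes are named, with Csf2rb2 as the near copy of Csf2rb. The genes, the markers and the 5 lists were chosen with earlier results of these data known. The ratio code was tested on simulated counts. Ambient RNA was not removed. Values of a few listed genes are not reported here.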

Additional observations from a re-analysis of the deposited data

Results flagged for a closer look

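Some genes were at least 2-fold higher in one compartment and at least 2-fold lower in another in the same pair of libraries. With 1 library in each group the difference between compartments was not tested. For Csf1r in late KIC against early KIC the log2 ratio was 1.44 in fibroblast-like cells and 1.23 in mesothelial-like cells, and -1.39 in macrophage-like cells and -4.28 in tumour-like cells. For Csf2rb in the same libraries it was 1.99 in fibroblast-like cells and -1.29 in tumour-like cells. For Csf2 in late KPC against late KPfC it was 1.85 in tumour-like cells and -1.18 in macrophage-like cells. For Csf3 in the same libraries it was 2.13 in tumour-like cells and -1.19 in macrophage-like cells. The macrophage-like values leave out cluster 7, and with it kept those of Csf2 and Csf3 in late KPC against late KPfC are -0.81 and -0.88, short of 2-fold.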

How the results depend on the processing

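No paired analysis was possible because each group has 1 library, and for the same reason no library could be left out within a group. A result was recomputed under 11 other settings where the setting gave a value: of 74 ratios 28 after thinning, 53 over cells with Xist and no Y-linked UMI, 60 with each library clustered on its own, 60 with a minimum of 50 UMIs and 68 at resolution 2. Members past 2-fold numbered 5 for early KIC over normal pancreas, 13 for late over early KIC, 12 in late KIC against late KPfC and 10 in late KPC against late KPfC. After thinning to 1000 UMIs these became 3, 3, 1 and 1, with fewer UMIs by construction. Without a minimum of UMIs the first of these became 9. The second became 8 at resolution 2, 8 with a minimum of 50 UMIs and 7 over cells with Xist and no Y-linked UMI. Of 705 recomputed log2 ratios 663 stayed within the counting interval of the main value. The settings with a minimum of 50 UMIs and with no minimum change which pairs are listed and no value. Their 60 and 74 ratios therefore agree by construction, and they also enter the counts of changed sign below. Of 381 recomputed from a called ratio 2 changed sign, as did 27 of 324 from ratios under 2-fold. The called ones were Il34 in fibroblast-like cells of late KIC against early KIC, -1.43 in the main analysis and 0.98 after thinning, and Csf2 in tumour-like cells of late KPC against late KPfC, 1.85 and -1.35 without the 5% of cells with the most UMIs. Before thinning those late KIC cells held 6 Il34 UMIs in all. The cause was not tested. Csf1r in macrophage-like cells of late KIC against early KIC lay between -1.04 and -1.67 and, in a setting chosen after seeing the data that kept cluster 7 in the macrophage ratios, at -1.03. With that setting the last pair of libraries had 8 members past 2-fold and the one before it 11. For Csf2rb in macrophages the early KIC to normal log2 ratio was 1.18 when each library was clustered on its own and 2.06 in the main analysis. Of 693 recomputed levels 642 stayed within their counting interval, as did 169 of 187 shares. The settings that change only the UMI minimum could not move their 64 levels or 17 shares each. Shares could not move either when each cell counted equally or when the class total left out acinar, haemoglobin and mitochondrial genes, with 17 shares each. Depth limits Csf2, Csf3r and all values from compartments under 30 cells.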

Other observations

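The genes whose summed levels followed each member most closely were ranked over 38 sums of a library and compartment by Pearson's r of log2(CPM + 10), among 8057 genes. The sums share libraries, so r is a description. Csf1 was nearest to Loxl1 (0.927), Adamts2 (0.926) and P3h1 (0.917), genes of collagen and elastic fibre processing. Il34 was nearest to Efna5 (0.906), Ptrf (0.904) and Nbl1 (0.899). Csf2 was nearest to Anxa10 (0.746) and Crisp1 (0.733), and Csf3 to Saa3 (0.778), Lhfpl2 (0.770) and Serpinb2 (0.762). Csf1r was nearest to Cd68 (0.868), Ccl9 (0.863) and C3ar1 (0.860). Csf2ra was nearest to Fgr (0.939), Alox5ap (0.933) and Clec4a2 (0.927). Csf2rb was nearest to its near copy Csf2rb2 (0.946), Alox5ap (0.907) and Itgax (0.906), and Csf3r to Fpr2 (0.829), Irg1 (0.827) and Camp (0.820). Of these last genes Fpr2 and Camp are genes of neutrophils. In late KPfC 25 of the 42 T or NK-like cells formed a sub-cluster led by the mast cell genes Mcpt1, Mcpt2 and Cpa3. That sub-cluster had 5 mast cell and 10 macrophage markers raised, with S100a8, S100a9, Lyz2, Apoe and Il1b among its top genes, and held 7 Csf1r, 8 Csf2ra and 11 Csf2rb UMIs over its libraries.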
